A study of Mus musculus with 12 samples.

Results

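Immortalized tumor-initiating cells (iTICs), mouse cells from a breast cancer study, were compared on days 4, 5 and 6 after transfer to normoxic standard conditions with iTICs kept in hypoxic stem cell conditions. The 6 arrays concerned (1 array a day for days 4, 5 and 6, and hypoxic replicates 1, 2 and 3) were picked by their names in the signal table, out of 12 arrays in all, and were normalized together with the other 6. Each array is an Illumina Mouse WG-6 v2.0 BeadChip, on which biotin-labelled cRNA binds oligonucleotide probes carried on beads. The hypoxic cells grew in a serum-free mammary stem cell medium on an MEBM base with 2% Cultrex, a basement membrane extract, under 3% O2 and 5% CO2. The normoxic cells had been moved into standard medium on a DMEM base under 21% O2 and 5% CO2. Oxygen, base medium and supplement therefore changed together, and their parts in any difference cannot be told apart. The other arrays, used here for reference, are those of days 1, 2 and 3 (1 each) and day 7 (3 replicates).

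No label says that the 3 hypoxic arrays are of separate cultures, and each normoxic day is 1 array, so p-values measure the spread among these arrays, with differences between days 4, 5 and 6 counted as spread. Of the 45281 probes each array detected from 34.3% to 37.7%, and the number of arrays limits the precision. The names of the 12 arrays follow the signal table. A second deposited table names the arrays in another way: of its 6 signal columns, 1 held the array of its own label. From the 2 tables, the arrays appear to have been handled as 2 sets of 6, which no label states. Days 4, 5 and 6 and hypoxic replicate 3 lie in one inferred set, and hypoxic replicates 1 and 2 and days 1, 2 and 3 in the other, so gene group counts below are also given with the inferred set as a block in the fit. Against hypoxic cells, the difference in that fit rests on hypoxic replicate 3 alone, and replicates 1 and 2 add only to the spread. A call can then be lost in more than 1 way. For the gene Asns the log2 difference went from -0.69 (SE 0.22) to -0.73 (SE 0.33), so the SE grew. For Pmaip1 the difference itself shrank, from 0.76 to 0.32. Why calls were lost was not tested. Counts and signs under the block reuse the same arrays and are no independent check.

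The epithelial identity of the cells was visible on all 6 arrays. Krt14, a keratin of basal cells, read 14.51, 14.27 and 14.34 on hypoxic arrays 1, 2 and 3 and 14.50, 14.50 and 14.58 on days 4, 5 and 6 on the log2 signal scale used throughout. Krt8, a luminal keratin, read 12.99 to 13.09 in hypoxic cells and 13.03 to 13.34 on days 4 to 6. Neither passed the test (limma adjusted p = 0.372 and 0.523). Of 20 macrophage, 19 lymphocyte and 17 endothelial marker genes listed, 3 of each were measured, and the summed linear signal of the 3 macrophage genes was 512 to 650 in hypoxic cells and 1274 to 2780 on days 4 to 6. Among the probes on the array for Ptprc, Adgre1, Csf1r, Itgam, Cd3e, Cd8a, Pecam1, Cdh5 and Kdr, none was detected on enough arrays to be tested. The 1 macrophage gene that rose was Cd14, a lipopolysaccharide co-receptor that luminal mammary cells also express, at 8.76, 9.22 and 9.04 in hypoxic cells and 10.78, 11.38 and 10.24 on days 4, 5 and 6. Of 9 measured fibroblast markers 7 rose and 1 fell (5 and 1 with the set as a block), with summed signals of 10287 to 10761 in hypoxic cells and 14017 to 18663 on days 4 to 6. Col1a1, a chain of type I collagen, was detected on 0 of 3 hypoxic arrays and read 8.49, 8.76 and 9.14 on days 4, 5 and 6, at least 10.8-fold higher (limma adjusted p = 1.55e-05). Whether fewer cells of a kind or less RNA per cell underlies a level in a bulk sample cannot be told apart, and the part of the fibroblast genes in other results was not tested.

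Cells short of oxygen stabilize hypoxia-inducible factors (HIFs), transcription factors that bind a short core in promoters and raise genes for glucose uptake, glycolysis, pH control and vessel growth. Shortage of amino acids or misfolded protein in the endoplasmic reticulum (ER) acts through the factors ATF4, ATF6 and XBP1, which raise amino acid synthesis, stress regulators and chaperones. Matrix metalloproteases cut the extracellular matrix. Mmp14, the membrane-anchored member named in the title of the series, also activates pro-Mmp2 in a complex with Timp2.

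Genes moved in both directions in similar numbers, a balance that normalizing all arrays to one distribution favours. Past the threshold (limma, Benjamini-Hochberg adjusted p below 0.05) were 5398 of 10365 genes tested, which is 52.1%. Of these, 2478 (23.9%) were higher on days 4 to 6 and 2920 (28.2%) lower, and 2540 differed by at least 2-fold, 1186 of them higher and 1354 lower. This 2-fold count was 1452 under quantile scaling without background correction. That scaling kept the direction of all 118 genes named by the rule given with the methods. It made the fold smaller by more than 1.5 times for 49 of them, so fold sizes depend on this step. Of these 118 genes 25 were detected on only 1 or 2 of the 3 arrays of one group. The median over all genes was -0.05 on the log2 scale, and the normalization holds it near 0. With the inferred set as a block, 3104 genes passed (1448 higher, 1656 lower), of which 3052 were among the 5398, all with the same sign. Within the inferred set that holds days 4 to 6, against hypoxic replicate 3 alone, 2324 passed (1103 higher, 1221 lower), and this count takes the lone hypoxic array to vary like the others. The 3 arrays of one group lay wholly above those of the other for 6354 genes (61.3%). The shares of 23.9% higher and 28.2% lower are the background for each count of a gene list against hypoxic cells. Of 118 genes named by the rule given with the methods, 115 passed and 96 of those also passed with the set as a block. The other 19 were Asns, Mmp2, Timp2, Fn1, Krt18, Sdhc, Phgdh, Pmaip1, Ifi47, Stat2, Psmb10, Egr2, Cad, Hspa1a, Xrn2, Fxyd6, Igfbp5, Sprr1b and Calcb. Genes mentioned in the text but not named by the rule are outside all counts over the 118.

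**Figure D1:**
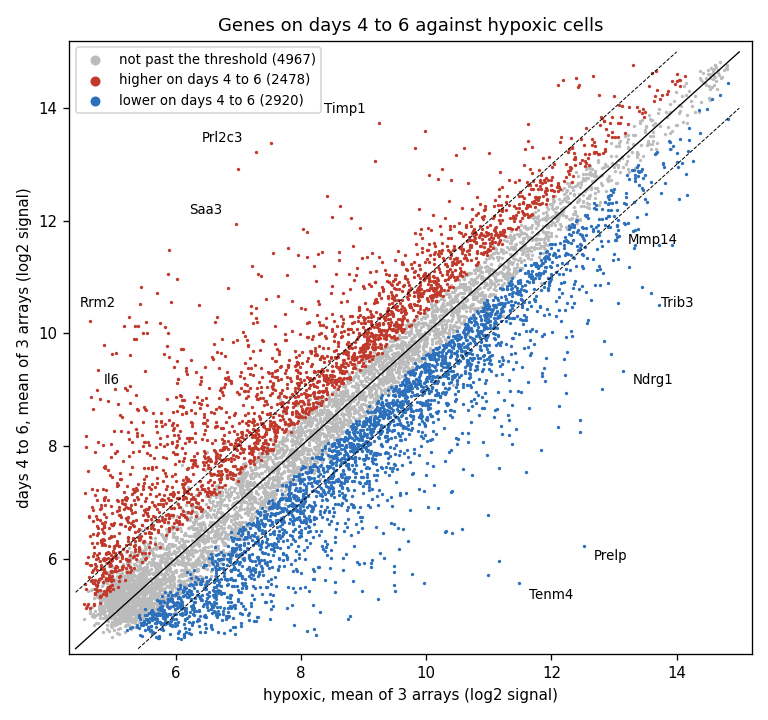
Mean log2 signal of each of 10365 genes on the 3 hypoxic arrays (horizontal) and on days 4 to 6 (vertical), coloured by whether the gene passed the threshold and in which direction; the solid line marks equal levels and the dashed lines a 2-fold difference. The 2478 higher and 2920 lower genes spread along the whole range of levels, with Prelp and Tenm4 farthest below the line and Prl2c3 among those farthest above it.

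HIF targets were mostly lower on days 4 to 6. Of 29 measured targets, 20 fell and 4 rose, with a median of -1.30 (all genes: -0.05), and with the set as a block 17 fell and 3 rose. Ndrg1, a hypoxia-induced growth regulator, read 13.06, 13.001 and 13.35 on hypoxic arrays 1, 2 and 3 and 9.21, 9.72 and 9.08 on days 4, 5 and 6. The groups lay far apart, a 13.9-fold fall (log2 difference -3.80, SE 0.20, limma adjusted p = 1.48e-05). Car9, a carbonic anhydrase that exports acid, read 9.98, 9.62 and 10.32 in hypoxic cells and 7.13, 7.05 and 7.44 on days 4, 5 and 6, which is 6.81-fold lower (limma adjusted p = 4.83e-05). Its relative Car12 had the largest fall of the list, from 12.90, 12.23 and 12.23 to 7.92, 8.30 and 8.55 (18.3-fold). Vegfa, the vessel growth factor, fell 2.53-fold, from 12.32 to 12.64 down to 10.91 to 11.43. Every array of days 4 to 6 lay below every hypoxic array for these 4 genes. The groups did not overlap for 61.3% of all genes tested, and Car12 was also named by a rule that asks for this. The 4 members that rose, named after their values were seen where the rule did not name them, were Angptl4, a lipase inhibitor, by 3.99 (limma adjusted p = 1.38e-05), Lox, which cross-links collagen, by 2.32, Pfkfb4, a glycolysis regulator, by 0.95, and the lipid droplet gene Hilpda by 0.59 on the log2 scale.

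Of 17 measured glycolysis genes 11 fell and 0 rose, with a median of -0.69. The count of falls was 7 with the set as a block, and 7 without hypoxic replicate 2 or without hypoxic replicate 3. Slc2a1, the glucose transporter Glut1, read 13.29, 13.15 and 13.27 in hypoxic cells and 11.15, 11.37 and 11.01 on days 4, 5 and 6, a 4.15-fold fall (log2 difference -2.05, SE 0.15, limma adjusted p = 4.12e-05). Pdk1, the kinase that keeps pyruvate out of mitochondria, fell 3.59-fold, from 9.30 to 9.71 down to 7.18 to 7.98. Aldoc, a glycolytic aldolase, had the largest fall, from 10.998, 11.08 and 11.20 to 8.14, 9.29 and 8.47. Ldha, which makes lactate, did not pass: it read 14.12, 14.08 and 14.07 in hypoxic cells and 14.26, 14.30 and 14.09 on days 4, 5 and 6 (difference 0.12, SE 0.13, limma adjusted p = 0.468).

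The HIF-binding core is spelled ACGTG, and it was looked for on both strands in the 250 bases before the RefSeq transcription start (GRCm38.p6). It occurred in 10 of the 22 measured HIF targets with a promoter in the table, in 8 of the 16 that fell and 0 of the 2 that rose. For glycolysis genes, the list that holds Slc2a1, it occurred in 6 of 16 measured and in 4 of 11 that fell. These counts stand beside 22.1% of all genes tested and 16.6% of all 27025 promoters. Car9 (chr4:43506776-43507025, plus strand) and Slc2a1 (chr4:119108495-119108744, plus strand) are shown because both fell and each holds 1 match, which is in capitals.
Car9: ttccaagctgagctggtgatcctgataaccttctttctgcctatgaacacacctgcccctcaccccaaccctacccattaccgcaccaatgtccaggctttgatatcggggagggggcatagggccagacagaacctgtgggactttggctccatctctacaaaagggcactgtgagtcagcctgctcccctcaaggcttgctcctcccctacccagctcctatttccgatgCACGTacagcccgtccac
Slc2a1: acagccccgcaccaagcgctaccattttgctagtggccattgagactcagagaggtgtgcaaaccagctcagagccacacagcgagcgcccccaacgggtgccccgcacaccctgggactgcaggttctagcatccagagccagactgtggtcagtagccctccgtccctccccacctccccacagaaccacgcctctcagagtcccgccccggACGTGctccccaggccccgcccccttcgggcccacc
In Car9 the match stands 13 bases before the transcription start and in Slc2a1 31 bases before it. A match is a description of letters and not a binding site. The HIF list is one of known targets, so its share describes the list and is no independent result.

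Genes of the amino acid and ER stress responses were also lower. Of 31 measured members of the ATF4 and amino acid list, 23 fell and 1 rose, with a median of -1.23, and 16 fell and 0 rose with the set as a block. Ddit3, the stress factor CHOP, read 12.83, 12.99 and 13.05 in hypoxic cells and 9.29, 10.64 and 8.97 on days 4, 5 and 6, a 10.0-fold fall (limma adjusted p = 0.000307). Trib3, a pseudokinase induced by CHOP and ATF4, read 13.65, 13.50 and 13.63 against 10.47, 11.57 and 10.09, a 7.36-fold fall (log2 difference -2.88, SE 0.34, limma adjusted p = 0.000329). Day 5 was the highest of the 3 normoxic arrays for both genes, and for the list as a whole, whose median lay at -1.33 on day 4, -0.79 on day 5 and -1.62 on day 6. Asns, asparagine synthetase, differed by -0.69 (limma adjusted p = 0.0275), but its adjusted p was 0.139 with the set as a block and 0.054 to 0.073 without day 4 or without any 1 of the hypoxic arrays, and another of its probes lay at -0.06. The member that rose was Phgdh, the first enzyme of serine synthesis, by 0.74 (limma adjusted p = 0.00651, and 0.0706 with the set as a block).

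ER chaperones fell in 17 of 21 cases and rose in 0, with a median of -1.13 (15 fell with the set as a block). Hspa5, the main chaperone BiP, read 10.93, 10.54 and 10.97 in hypoxic cells and 9.52, 9.41 and 9.14 on days 4, 5 and 6, a 2.74-fold fall (log2 difference -1.45, SE 0.18, limma adjusted p = 0.000387). The largest fall of the list was that of Ero1b, an oxidase for disulfide bonds, from 8.29 to 8.64 down to 5.63 to 6.09. The ER stress element, spelled CCAAT and CCACG with 9 bases of any kind between, occurred on either strand in 9 of the 19 measured chaperones with a promoter in the table, all 9 among the 16 that fell, against 0.155% of all genes tested and 0.122% of all promoters. Hspa5 (chr2:34771840-34772089, plus strand) holds 1 match and Hsp90b1, the chaperone Grp94 (chr10:86705445-86705694, minus strand), holds 2, in capitals below. The latter fell from 13.92 to 14.16 in hypoxic cells to 12.87 to 13.07 on days 4 to 6.
Hspa5: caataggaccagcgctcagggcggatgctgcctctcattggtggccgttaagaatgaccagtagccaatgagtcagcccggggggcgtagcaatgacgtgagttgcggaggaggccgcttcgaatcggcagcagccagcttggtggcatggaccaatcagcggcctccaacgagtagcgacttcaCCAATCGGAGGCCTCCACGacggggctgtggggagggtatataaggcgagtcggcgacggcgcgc
Hsp90b1: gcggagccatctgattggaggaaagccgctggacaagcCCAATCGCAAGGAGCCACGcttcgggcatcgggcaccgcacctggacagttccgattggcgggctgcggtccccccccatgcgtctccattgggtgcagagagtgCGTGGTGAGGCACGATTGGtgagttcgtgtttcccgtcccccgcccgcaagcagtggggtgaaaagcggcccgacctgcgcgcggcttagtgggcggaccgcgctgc
Several ER chaperones are textbook carriers of this element, so the share is a description of the list and no independent result.

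Cell division genes were higher on days 4 to 6. In the mitosis list 24 of 25 measured members rose and 0 fell, with a median of 2.50, and in the DNA replication list 38 of 39 rose and 0 fell, with a median of 1.86. With the set as a block 22 and 33 rose. Birc5, the survivin of the mitotic chromosomal passenger complex, read 8.47, 8.96 and 8.42 in hypoxic cells and 12.33, 11.92 and 12.55 on days 4, 5 and 6, a 12.6-fold rise (log2 difference 3.65, SE 0.22, limma adjusted p = 2.27e-05). Mcm5, a subunit of the replicative helicase, read 8.03, 7.77 and 8.07 against 11.65, 10.98 and 11.56, a 10.8-fold rise (limma adjusted p = 2.27e-05). Rrm2, the ribonucleotide reductase subunit that limits nucleotide supply, read 5.01, 5.19 and 5.56 against 10.64, 9.75 and 10.51, and was detected on 1 of 3 hypoxic arrays. The size of that rise depends on the probe: the log2 difference was 5.04 for the probe used and 4.46 and 0.68 for the other 2. Day 5 was the lowest of the 3 normoxic arrays for all 3 genes, and the list medians on days 4, 5 and 6 were 2.74, 2.16 and 2.59 for mitosis and 1.93, 1.46 and 2.02 for replication. Among G1 cyclins and Cdk inhibitors 6 of 16 rose and 3 fell (5 and 3 with the set as a block). Cyclin E2 (Ccne2) was at least 4.86-fold higher and undetected in hypoxic cells, and the inhibitor Cdkn1c fell by 2.21. Named after their values were seen, the Cdk inhibitor Cdkn1b and the pocket protein Rb1 fell by 1.53 and 1.29, the Cdk inhibitors Cdkn2c and Cdkn2d and the pocket protein Rbl1 rose by 1.40, 0.73 and 1.46, and Cdkn1a, Cdkn2a and Cdkn2b did not pass.

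The E2F sites TTTGGCGC and TTTCGCGC were searched together on both strands, where matches on opposite strands can overlap. At least 1 of them occurred in 4 of 32 measured replication genes with a promoter in the table (12.5%), against 1.41% of all genes tested and 0.673% of all promoters. Mcm5 (chr8:75109259-75109508, plus strand) and Mcm6, another helicase subunit (chr1:128359706-128359955, minus strand), are shown as 2 of those 4 that rose. Mcm6 read 7.91 to 8.15 in hypoxic cells and 10.11 to 10.62 on days 4 to 6.
Mcm5: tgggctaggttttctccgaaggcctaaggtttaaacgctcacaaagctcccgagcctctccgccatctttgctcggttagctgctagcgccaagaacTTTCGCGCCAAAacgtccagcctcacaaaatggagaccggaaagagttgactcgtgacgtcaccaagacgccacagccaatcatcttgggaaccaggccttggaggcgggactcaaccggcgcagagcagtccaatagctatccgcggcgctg
Mcm6: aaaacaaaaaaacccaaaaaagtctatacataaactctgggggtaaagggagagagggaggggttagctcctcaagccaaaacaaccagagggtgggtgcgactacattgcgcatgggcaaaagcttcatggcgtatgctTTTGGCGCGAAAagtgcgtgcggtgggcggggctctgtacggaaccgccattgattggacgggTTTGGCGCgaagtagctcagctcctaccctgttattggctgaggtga
Capitals mark the matches, which overlap at 1 place in each promoter. As with the HIF and ER motifs, the share describes the list and is no independent result, and a match is not a binding site.

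**Figure D2:**
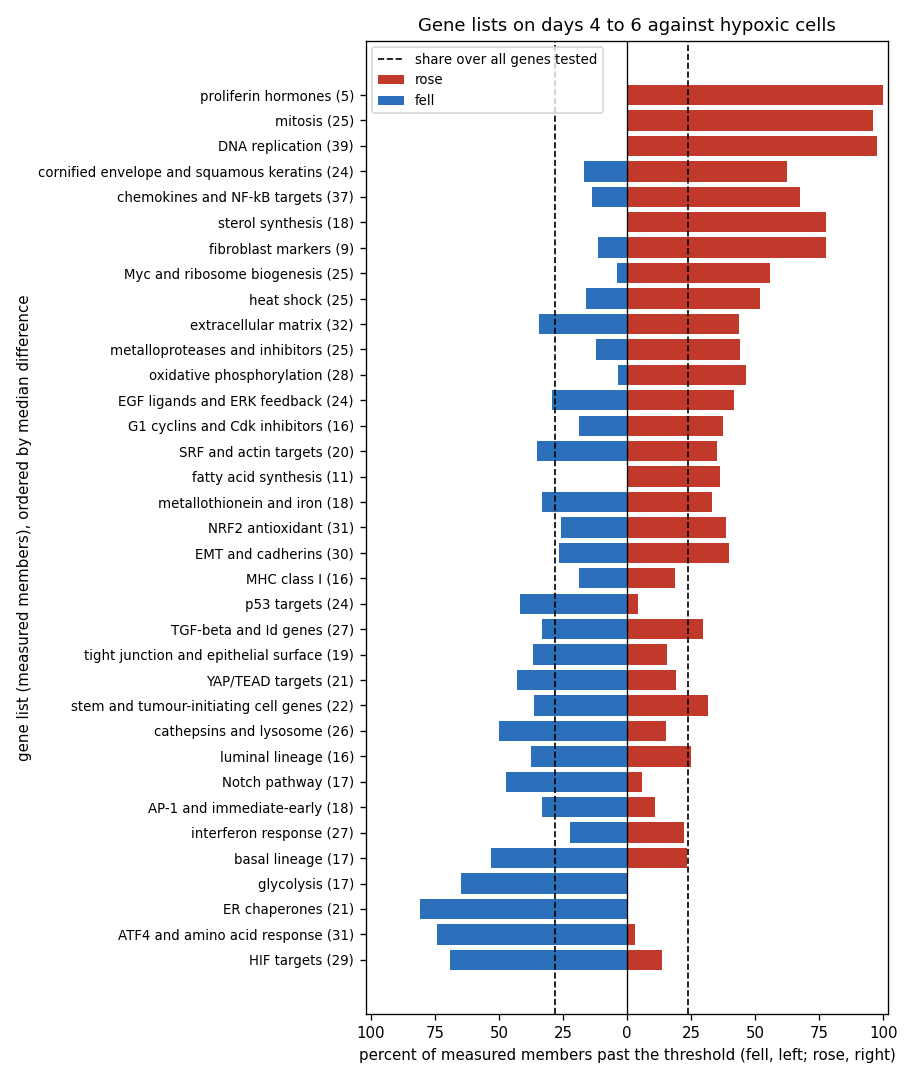
Share of each gene list's measured members that rose (red, right) or fell (blue, left) on days 4 to 6 against hypoxic cells, in percent, for lists with at least 5 measured members, ordered by the median difference; dashed lines give the shares over all genes tested, 23.9% higher and 28.2% lower. Mitosis, DNA replication and sterol synthesis have no bar on the left, and glycolysis and ER chaperones none on the right.

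Mmp14 itself was lower after the transfer. It read 13.12, 12.997 and 13.05 in hypoxic cells and 11.97, 11.95 and 11.58 on days 4, 5 and 6, with the groups far apart, a 2.34-fold fall (log2 difference -1.22, SE 0.16, limma adjusted p = 0.000463). It did not differ past the threshold from days 1 to 3, at a mean of 11.999, or from day 7, at 11.58 (limma adjusted p = 0.51 and 0.31). Of 25 measured members of the list of metalloproteases and inhibitors, 11 rose, 3 fell and 11 did not pass. Over all genes tested 23.9% were higher and 28.2% lower. With the set as a block 6 members rose and 2 fell. Mmp3, stromelysin-1, was among the 12 largest rises of all genes, from 5.55, 5.09 and 4.89 to 10.77, 10.74 and 8.88, with detection on 1 of 3 hypoxic arrays and day 6 the lowest normoxic array (log2 difference 4.95, SE 0.48, limma adjusted p = 0.000137). Timp1, a secreted inhibitor, read 8.96, 9.41 and 9.38 against 13.77, 13.22 and 14.20, a 22.3-fold rise (limma adjusted p = 2.01e-05). The partners of Mmp14 in pro-Mmp2 activation differed in sign: Mmp2 read 8.73 to 9.16 in hypoxic cells and 9.65 to 10.81 on days 4 to 6 (difference 1.39, limma adjusted p = 0.00467, and 0.0784 with the set as a block), and Timp2 read 12.68 to 12.86 against 11.86 to 12.20 (difference -0.73, limma adjusted p = 0.00428, and 0.06 with the set as a block). The third member that fell, named after its value was seen, was Mmp11, by 1.01.

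Matrix genes moved in both directions. Of 32 measured, 14 rose and 11 fell (9 and 7 with the set as a block), beside 23.9% higher and 28.2% lower over all genes tested. Prelp, a proteoglycan that ties basement membranes to connective tissue, had the largest fall of all genes, from 12.33, 12.51 and 12.73 to 5.70, 6.87 and 6.08, a 79.0-fold difference (SE 0.29 on the log2 scale, limma adjusted p = 1.16e-05). Fn1, fibronectin, fell by 1.10 (limma adjusted p = 0.0122, and 0.0506 with the set as a block). Cthrc1, a secreted collagen-associated protein, was detected on 0 of 3 hypoxic arrays and read 8.67, 9.01 and 10.36 on days 4, 5 and 6, at least 15.8-fold higher. Has2, which makes hyaluronan, rose from 5.90, 5.43 and 5.75 to 10.88, 9.78 and 11.49 (32.5-fold, limma adjusted p = 5.45e-05).

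The largest rises of all belonged to a family of placental hormones. The proliferins Prl2c2, Prl2c3 and Prl2c4 are near-identical copies whose probes cannot be taken to tell them apart, so their values count as 1 signal. Prl2c3 read 6.71, 7.54 and 7.61 in hypoxic cells and 13.51, 13.55 and 12.60 on days 4, 5 and 6, a 61.2-fold rise (log2 difference 5.94, SE 0.33, limma adjusted p = 1.71e-05). All 5 measured members of the list rose, with Prl2c2, Prl2c3 and Prl2c4 counting as 1 signal, beside 23.9% higher over all genes tested. The list was chosen with earlier results of these data known, so this count is no independent result. The related Prl2a1 was detected on 0 of 3 hypoxic arrays and read 10.39, 10.66 and 9.62 on days 4, 5 and 6, at least 29.0-fold higher. Akr1c18, which inactivates progesterone, rose 48.1-fold, from 6.04, 5.47 and 6.18 to 11.39, 11.69 and 11.36 (limma adjusted p = 1.15e-05).

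Genes of inflammation were also among the largest rises. Of 37 measured chemokines and NF-kB targets, 25 rose and 5 fell, with a median of 1.48, or 1.09 with members undetected in one group set at their bound (19 rose and 2 fell with the set as a block). Il1a, an alarm cytokine of epithelial cells, read 5.24, 5.68 and 5.43 in hypoxic cells and 11.36, 11.17 and 9.96 on days 4, 5 and 6 (log2 difference 5.38, SE 0.35, limma adjusted p = 2.82e-05). Ccl2, the monocyte attractant, read 5.61, 6.15 and 5.85 against 10.93, 11.54 and 10.69, a 36.3-fold rise. Il24, a cytokine of the IL-10 family, rose 34.1-fold and was highest on day 4, at 11.27 against 9.91 and 10.40 on days 5 and 6. Saa3, an acute-phase serum amyloid, read 6.97, 6.57 and 7.35 against 11.49, 12.44 and 11.88, a 31.4-fold rise (limma adjusted p = 1.93e-05). Il6 was detected on 0 of 3 hypoxic arrays and read 8.77, 8.71 and 9.12 on days 4, 5 and 6, at least 11.3-fold higher (limma adjusted p = 1.15e-05). The 5 members that fell were the adhesion receptor Icam1, by 1.47, and, named after their values were seen, the chemokine genes Cx3cl1, Ccl20 and Cxcl12 and the macrophage growth factor Csf1, by 1.36, 1.07, 0.65 and 1.06.

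**Figure D3:**
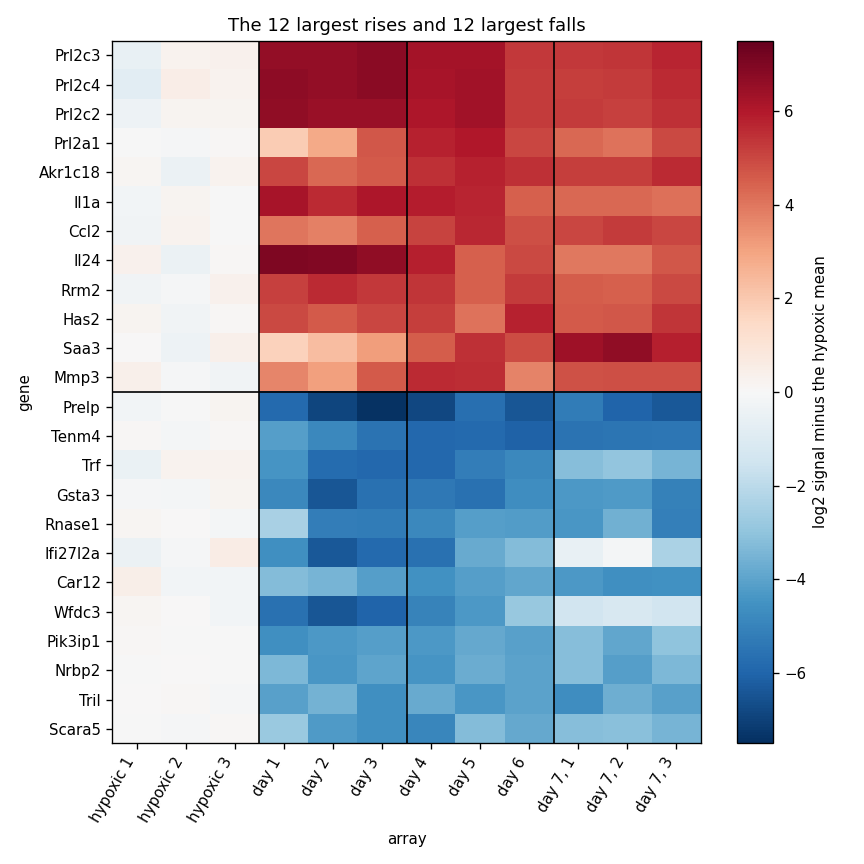
Log2 signal minus the mean of the 3 hypoxic arrays (colour scale) for the 12 genes with the largest rises and the 12 with the largest falls on days 4 to 6, on all 12 arrays; vertical lines part the hypoxic arrays, days 1 to 3, days 4 to 6 and day 7. The genes were chosen on the hypoxic arrays and those of days 4 to 6, so the contrast between these is part of the choice; among the falls, Ifi27l2a and Wfdc3 are paler on day 7 (means 9.94 and 10.24) than on days 4 to 6.

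The other large falls were those of single genes of varied kinds. Tenm4, a teneurin of the cell surface, read 11.55, 11.34 and 11.55 in hypoxic cells and 5.61, 5.67 and 5.43 on days 4, 5 and 6, a 60.1-fold fall (limma adjusted p = 1.9e-06), while its other 2 probes gave log2 differences of -4.53 and -0.82. Trf, the iron carrier transferrin, read 10.49, 11.24 and 11.22 against 5.11, 5.82 and 6.17, a 38.9-fold fall (limma adjusted p = 2.09e-05). The transferrin receptor Tfrc went the other way, from 8.03, 8.58 and 8.88 to 12.26, 12.05 and 11.92, a rise by 3.58 on the log2 scale (limma adjusted p = 2.71e-05). Scara5, a ferritin receptor, fell 15.8-fold, from 12.38 to 12.53 down to 7.56 to 9.20. Gsta3, a glutathione transferase, fell by 5.20 on the log2 scale, but its other probe differed by -0.41 (limma adjusted p = 0.29 over probes). Rnase1, Pik3ip1, an inhibitor of PI3-kinase, the pseudokinase gene Nrbp2 and Tril, a partner of Toll-like receptors, had falls of 21.1-fold, 16.8-fold, 16.6-fold and 16.6-fold. Pik3ip1 was detected on 1 and Rnase1, Tril, Tenm4 and Trf on 2 of the 3 arrays of days 4 to 6. Under quantile scaling without background correction the falls of Rnase1, Pik3ip1, Nrbp2 and Tril were 7.93-fold, 6.13-fold, 8.81-fold and 6.74-fold. The 12 largest falls were taken only among genes whose groups did not overlap, so that separation is part of the choice.

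Lineage and stem cell genes moved in both directions. Of 17 measured basal genes 9 fell and 4 rose, and of 16 luminal genes 6 fell and 4 rose (5 and 3 basal, 3 and 4 luminal with the set as a block). Over all genes tested 23.9% were higher and 28.2% lower, and the share of rises in both lists lay near this. Krt5, a basal keratin, read 10.63, 10.43 and 10.40 in hypoxic cells and 9.05, 8.80 and 9.67 on days 4, 5 and 6, a 2.48-fold fall (limma adjusted p = 0.00211), while its usual partner Krt14 did not pass. Krt18, the partner of Krt8, fell by 0.75 (limma adjusted p = 0.0139, and 0.089 with the set as a block). Aldh1a3, a retinaldehyde dehydrogenase used to mark mammary progenitors, was detected on 0 of 3 hypoxic arrays and read 10.08, 8.37 and 10.45 on days 4, 5 and 6, at least 19.2-fold higher, though its other probe did not pass (difference 0.90, limma adjusted p = 0.10 over probes). Cd44, a hyaluronan receptor of tumour-initiating cells, read 10.29, 9.92 and 10.15 against 11.78, 11.51 and 11.52, a 2.80-fold rise (limma adjusted p = 0.000207). In the stem and tumour-initiating list 7 of 22 rose and 8 fell (6 and 5 with the set as a block). Its largest fall was Notch1, from 10.00, 9.56 and 10.09 to 7.37, 6.97 and 7.38, a 6.24-fold fall (limma adjusted p = 4.53e-05). Notch pathway genes fell in 8 of 17 cases and rose in 1 (7 and 1 with the set as a block), with the ligand Jag2 7.36-fold lower, and the 1 that rose, Notch4 (difference 0.78, limma adjusted p = 0.023), had adjusted p of 0.073 to 0.082 without day 4, without hypoxic replicate 1 or without hypoxic replicate 3.

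Of 30 measured genes tied to epithelial-mesenchymal transition 12 rose and 8 fell (10 and 5 with the set as a block). Cdh1, E-cadherin, read 11.99, 11.80 and 12.13 in hypoxic cells and 11.26, 11.27 and 11.08 on days 4, 5 and 6, a 1.71-fold fall (limma adjusted p = 0.00338), with its other probe at -0.42 (adjusted p = 0.31 over probes). Vim, vimentin, a mesenchymal filament protein, read 9.79, 10.44 and 10.43 against 11.71, 11.82 and 12.21, a 3.23-fold rise (limma adjusted p = 0.000558). Fstl1, a secreted follistatin-like protein, rose most in the list, from 4.98, 5.53 and 6.08 to 9.77, 10.37 and 10.47, and Esrp1, an epithelial splicing factor, fell most, from 13.29 to 13.49 down to 11.61 to 12.03. Other members, named after their values were seen, ran both ways. The factors Twist2, Snai1, Prrx1, Zeb1 and Zeb2 rose by 2.99, 2.73, 2.22, 1.39 and 0.74, and S100a4 rose by 3.88. Snai2, a mesenchymal transcription factor, fell by 1.39 and Tgfbi, a matrix protein, by 1.20. Fn1 fell as given above, and Cdh2, N-cadherin, and the factor Twist1 did not pass. The median of the list was -0.15. In the tight junction list 3 of 19 rose and 7 fell (2 and 4 with the set as a block), with Cldn1 up by 1.16 and F11r, the adhesion molecule JAM-A, down 4.08-fold. Id genes, inhibitors of differentiation factors, split: Id3 rose from 5.15, 5.54 and 5.31 to 9.91, 9.33 and 10.47, and Id4 fell from 10.96, 10.86 and 11.10 to 7.83, 7.17 and 8.52 (limma adjusted p = 2.35e-05 and 0.000145). Over the TGF-beta and Id list 8 of 27 rose and 9 fell (6 and 8 with the set as a block), near the 23.9% higher and 28.2% lower over all genes tested.

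Signalling lists had members on both sides, beside 23.9% higher and 28.2% lower over all genes tested. Ligands of the EGF receptor and genes of ERK feedback rose in 10 of 24 cases and fell in 7 (7 and 4 with the set as a block), led by the ligand Hbegf, 5.02-fold higher, and the phosphatase Dusp4, 2.61-fold lower by the probe used, while its other 2 probes did not pass (adjusted p = 0.051 and 0.13 over probes). Among AP-1 and immediate-early genes 2 of 18 rose and 6 fell (0 and 3 with the set as a block, and 2 and 10 without day 5). Klf2, a zinc-finger factor, fell 3.78-fold, and Egr2 rose by 1.14 (limma adjusted p = 0.0397), with adjusted p between 0.080 and 0.116 without hypoxic replicate 2, hypoxic replicate 3, day 4 or day 6, or with the set as a block. In the YAP and TEAD list 4 of 21 rose and 9 fell (2 and 5 with the set as a block): of its 15 target genes 4 rose and 6 fell, and of its 6 factors 0 rose and 3 fell. Among the targets the matrix protein gene Ccn1 was 3.03-fold higher and Rbms3, for an RNA-binding protein, 2.94-fold lower. SRF and actin targets rose in 7 of 20 and fell in 7 (2 and 5 with the set as a block), with smooth muscle Actg2 5.51-fold higher and the factor Srf itself 2.49-fold lower.

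Lists of metabolism and ribosome biogenesis stand beside 23.9% higher and 28.2% lower over all genes tested. Oxidative phosphorylation genes rose in 13 of 28 cases and fell in 1, while 14 did not pass, with a median of 0.37. With the set as a block 4 rose and 0 fell, and 9 rose without any 1 of the hypoxic arrays. Cox7a2, a subunit of cytochrome oxidase, had the largest rise, from 8.60, 8.55 and 8.62 to 9.58, 9.49 and 10.27 (limma adjusted p = 0.00248). The 1 that fell, Sdhc of succinate dehydrogenase, did so by 0.47 (limma adjusted p = 0.0186, and 0.123 with the set as a block). Sterol synthesis rose in 14 of 18 cases and fell in 0, with a median of 1.03 (12 rose with the set as a block). Mvk, mevalonate kinase, read 5.34, 5.29 and 5.47 in hypoxic cells and 9.13, 8.76 and 8.81 on days 4, 5 and 6, and was detected on 1 of 3 hypoxic arrays (11.6-fold, limma adjusted p = 1.16e-05). In fatty acid synthesis 4 of 11 rose, 0 fell and 7 did not pass (2 rose with the set as a block), the risers being desaturases or elongases: Fads2 by 1.11 and, named after their values were seen, Elovl6, Scd2 and Scd1 by 0.98, 0.75 and 0.74. Genes of Myc and ribosome biogenesis rose in 14 of 25 cases and fell in 1 (6 and 0 with the set as a block).

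Defence and turnover lists were mixed, beside 23.9% higher and 28.2% lower over all genes tested. Of 31 measured NRF2 antioxidant genes 12 rose and 8 fell (5 and 4 with the set as a block). Nqo1, a quinone reductase, rose from 6.31 to 6.49 up to 7.24 to 7.40 (limma adjusted p = 0.00106), and Gsta4 rose 2.48-fold. Among p53 targets 10 of 24 fell and 1 rose (6 and 0 with the set as a block), the largest fall being Trp53inp1, a 4.93-fold one. The 1 that rose, Pmaip1 (Noxa), by 0.76 (limma adjusted p = 0.0182), had adjusted p of 0.334 with the set as a block and 0.054 to 0.070 without hypoxic replicate 1, hypoxic replicate 2 or day 6. Cathepsins and lysosomal genes fell in 13 of 26 cases and rose in 4 (7 and 1 with the set as a block), with the peptidase Tpp1 3.92-fold lower. Heat shock genes rose in 13 of 25 cases and fell in 4, but 4 rose and 1 fell with the set as a block. Hspa4 rose by 1.23, and the inducible Hspa1a, whose near-identical copy Hspa1b may share its signal, fell by 1.21 (limma adjusted p = 0.013, and 0.116 with the set as a block). Metallothionein and iron genes rose in 6 of 18 cases and fell in 6 (2 and 4 with the set as a block), with Mt2, a metal-binding protein, 3.04-fold lower.

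The 3 days were not alike in every respect. At 2-fold or more from the hypoxic mean and outside the range of the hypoxic arrays lay 2875 genes on day 4 (27.7%), 2341 on day 5 (22.6%) and 3044 on day 6 (29.4%). These counts share the hypoxic arrays and rest on 1 array a day, so they carry no test. Between days, 442 genes were 2-fold apart on days 4 and 5, 597 on days 5 and 6 and 463 on days 4 and 6, against 157 to 221 between hypoxic arrays and 341 to 552 between day 7 replicates. A gene's SD had a median of 0.17 in hypoxic cells and of 0.22 over days 4 to 6, and it was larger on days 4 to 6 for 62.1% of genes. In a principal component analysis of the 6 arrays the first component held 82.0% of the variance and parted the hypoxic arrays from the other 3, and the second, with 6.65%, parted day 6 from days 4 and 5.

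Interferon response genes were ordered by day within the window. Interferons raise a set of antiviral and antigen presentation genes. Of 27 measured, 6 rose and 6 fell, which is no more than the 23.9% higher and 28.2% lower over all genes tested. The list median was -0.41, but it lay at -1.17 on day 4, -0.42 on day 5 and 0.57 on day 6. On day 4, 15 members lay 2-fold or more below the hypoxic arrays and 2 above, and on day 6, 2 lay below and 8 above. Of all 10365 genes tested, 1529 lay below and 1346 above on day 4, and 1611 below and 1433 above on day 6. In 19 of the 27 the arrays were ordered day 4, day 5, day 6 from low to high, and in 0 the other way. Among the 5398 genes past the threshold 732 were ordered upward and 743 downward. These are no like background, since 15 of the 27 did not pass and a call favours a small spread over these days. Orderings were not counted over all genes tested, so those of the lists stand without a background. Without day 6, 5 members rose and 13 fell, and with the set as a block 2 rose and 2 fell. Ifi47, an interferon-induced GTPase, read 5.47, 5.89 and 5.38 in hypoxic cells and 6.04, 7.27 and 8.52 on days 4, 5 and 6 (difference 1.70, limma adjusted p = 0.0288, 0.112 with the set as a block, and 0.060 to 0.089 without day 5, hypoxic replicate 1 or hypoxic replicate 3). Stat2 read 7.40, 7.02 and 7.11 against 4.79, 5.98 and 6.27 (difference -1.49, limma adjusted p = 0.00886, and 0.0833 with the set as a block). Ifi27l2a, an interferon-induced mitochondrial protein, was 18.4-fold lower over the window and read 5.40, 7.23 and 7.71 on days 4, 5 and 6 against 10.52, 10.87 and 11.56 in hypoxic cells. In the MHC class I list, whose members present antigen, 3 of 16 rose and 3 fell (0 and 2 with the set as a block). These counts are also no more than the shares over all genes tested. Of the 16, 10 were ordered upward over the 3 days. The proteasome subunit Psmb10 read 9.88, 9.91 and 10.78 on days 4, 5 and 6 against 8.96 to 9.05 in hypoxic cells, and the peptide transporter Tap2 fell by 1.12.

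**Figure D4:**
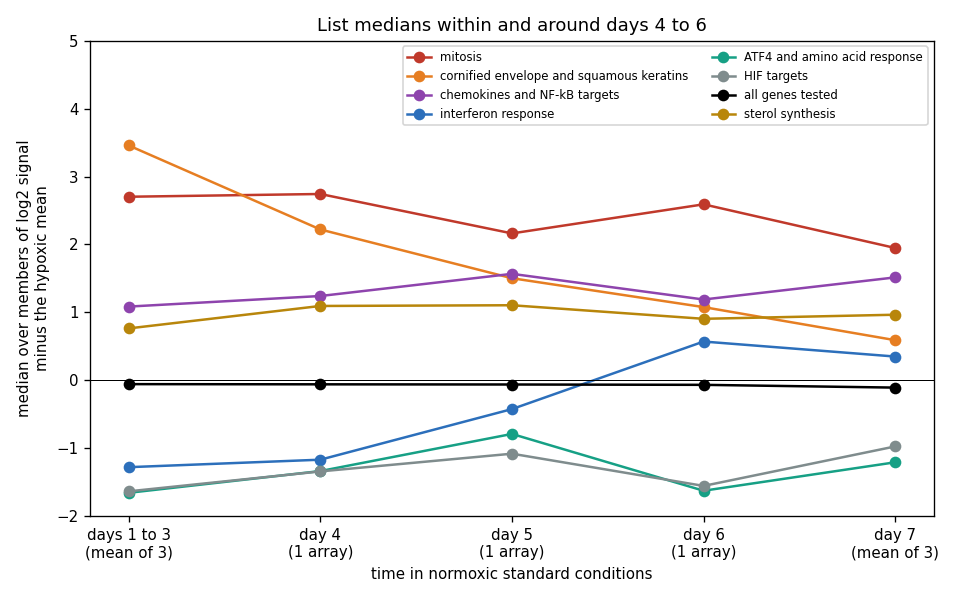
Median over the measured members of 7 gene lists, and over all genes tested, of the log2 signal minus the hypoxic mean, for the mean of days 1 to 3, for days 4, 5 and 6 (1 array each) and for the mean of the 3 day 7 replicates. The interferon list climbs from -1.17 on day 4 to 0.57 on day 6 while the cornified envelope list comes down from 2.22 to 1.08. The line of all genes stays near 0, which normalizing all arrays to one distribution favours.

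Cornified envelope genes and squamous keratins, which build the dead outer layer of skin, went down over the same days. Of 24 measured 15 rose and 4 fell against hypoxic cells (13 and 1 with the set as a block), with medians of 2.22, 1.50 and 1.08 on days 4, 5 and 6. In 12 of 24 the arrays were ordered day 4, day 5, day 6 from high to low and in 2 the other way, with no count over all genes tested beside it. Krtdap, a keratinocyte differentiation protein, had the largest rise, from 5.55, 5.54 and 5.34 to 10.54, 9.32 and 10.14 (log2 difference 4.53, limma adjusted p = 2.71e-05). Evpl, envoplakin, fell most, from 9.05, 8.52 and 8.27 to 7.51, 7.08 and 6.82 (limma adjusted p = 0.00185).

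The genes with the largest shift from day 4 to day 6, chosen on those arrays and given with no test of the shift, fall under the same headings in part. Downward they were Sprr1b, a cornified envelope precursor, at 11.01, 10.63 and 8.32, Psca at 9.41, 8.34 and 6.96, S100a7a at 9.72, 7.998 and 7.54, the skin peptidase Klk7 at 9.39, 8.72 and 7.28, Cnfn, cornifelin, at 8.90, 7.64 and 6.81, and the neuropeptide gene Calcb at 7.16, 6.62 and 5.21. Their hypoxic arrays read between 4.69 and 7.94. For 5 of the 6, Sprr1b, Psca, S100a7a, Klk7 and Cnfn, the means of days 1 to 3 were higher than day 4, at 12.88, 11.72, 10.31, 11.58 and 11.29, and those of day 7 lower than day 6, at 8.02, 5.66, 7.11, 6.41 and 5.53. Upward they were Fxyd6, an ion pump modulator, at 4.76, 5.80 and 8.07, Ifi47, Ifi27l2a, Wfdc3 at 6.59, 7.27 and 8.73, Igfbp5, a binder of insulin-like growth factors, at 4.79, 5.00 and 6.74, and Cthrc1. Hypoxic arrays read 7.995 to 8.64 for Fxyd6, 11.40 to 11.77 for Wfdc3 and 7.04 to 7.57 for Igfbp5, so day 6 lay nearer to the hypoxic level than day 4 did for these 3 genes. For Fxyd6, Igfbp5, Sprr1b and Calcb the call against hypoxic cells was lost without at least 1 of the arrays, and their limma adjusted p was 0.034, 0.0165, 0.0171 and 0.0198 over all 6 arrays, and 0.238, 0.130, 0.0793 and 0.114 with the set as a block.

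**Figure D5:**
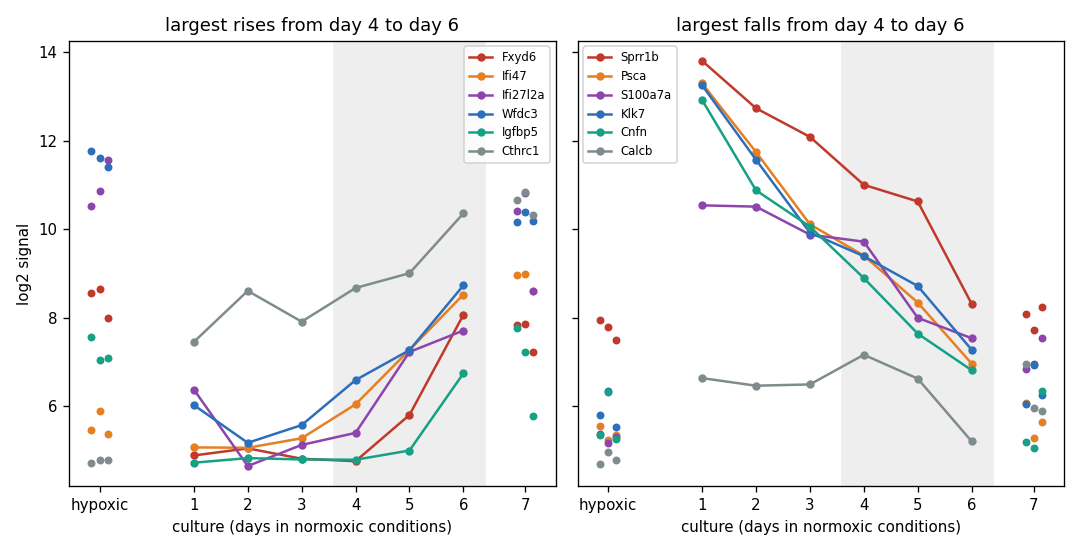
Log2 signal on each array of the 6 genes with the largest rise (left) and the 6 with the largest fall (right) from day 4 to day 6; points at the left and right of each panel are the 3 hypoxic arrays and the 3 day 7 replicates, lines join days 1 to 6, and grey marks days 4 to 6. Fxyd6 goes from 4.76 on day 4 to 8.07 on day 6 and Sprr1b from 11.01 to 8.32.

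Set against its neighbours in time, the window differed less. In a fit of 4 window means over all 12 arrays, 1362 genes (13.1%) differed between days 4 to 6 and days 1 to 3, 721 higher and 641 lower, and 707 (6.82%) differed from day 7, 297 (2.87%) higher and 410 (3.96%) lower. The first count became 0 with the set as a block, where 1623 genes had an unadjusted p below 0.05, and days 1 to 3 and days 4 to 6 lie in different inferred sets. The second became 419. It was 70 without day 4, 266 without day 5 and 1168 without day 6, and the first was 1125, 615 and 582. Against days 1 to 3, 13 of 37 chemokine and NF-kB genes and 13 of 27 interferon genes were higher and 0 lower, and 16 of 24 cornified envelope genes were lower and 2 higher, beside backgrounds of 6.96% higher and 6.18% lower. Saa3 lay at a mean of 9.37 on days 1 to 3 and 13.24 on day 7. Il6 lay at 6.46 and 9.83, and on days 1 to 3 both were lower than on days 4 to 6 (limma adjusted p = 0.0045 and 0.0027). Against day 7 the limma adjusted p was 0.054 for Saa3, which did not pass, and 0.042 for Il6, which was lower on days 4 to 6.

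Few genes stood out on days 4 to 6 from all other stages. By all 3 tests 5 genes were higher (0.0482%) and 1 lower (0.00965%), and 0 of the 6 passed with the set as a block. Cbwd1 read 6.72, 5.84 and 6.34 on days 4, 5 and 6, was detected on 0 of 3 hypoxic arrays and was at least 1.91-fold higher than there. Unc5a, a netrin receptor, read 5.65, 6.47 and 5.49, and Exosc3, of the RNA exosome, 5.63, 5.74 and 5.50, both undetected in hypoxic cells and at least 1.42-fold and 1.20-fold higher. The nuclease Xrn2 and the receptor kinase Alk differed from hypoxic cells by 0.77 and 0.57, with the other 2 probes of Xrn2 at 0.05 and 0.22, and Alk lost its call (limma adjusted p = 0.0289) at 0.050 to 0.103 without hypoxic replicate 2, hypoxic replicate 3 or any 1 of the 3 days. Usp38, a deubiquitinase, read 5.54, 5.51 and 5.53 against 6.46, 6.55 and 6.37 in hypoxic cells (limma adjusted p = 0.000716), and its other probe differed by -0.43 (adjusted p = 0.40 over probes). Left out in turn, day 4, day 5 and day 6 left 1, 4 and 18 such genes, of which 0, 2 and 5 were among these 6.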

How the data were processed

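RNA of iTICs was measured on 12 one-colour Illumina arrays. The authors deposited log2 signals per probe with detection p-values, not normalized per the labels of the file, and a second table of processed log2 values, which served only to place the arrays. The p-value columns do not stand beside the signals they belong to, so each signal was paired with the p-value column that orders it exactly. Scanner files were not used here.

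All 12 arrays were background-corrected and quantile-normalized together with neqc (limma 3.58.1 in R 4.3.3, offset 16). Probes with a detection p below 0.05 on at least 3 of 12 arrays were kept (18561 of 45281), and each gene took its brightest probe, giving 10365 genes. Of the probes, 34885 had 1 gene symbol, 18 several and 10378 none. Days 4 to 6 were tested against hypoxic cells with limma on the 6 arrays (4 residual degrees of freedom), and against days 1 to 3 and day 7 in a fit of 4 window means (8 residual degrees of freedom), with Benjamini-Hochberg adjustment over all genes. Where a gene was above background on no array of a group, the fold is a lower bound ("at least"), the bright group's mean over, on each dim array, the higher of the lowest detected signal and the gene's own. The scripts were tested on simulated data. Tables and plots used Python 3.11.15, pandas 2.3.3 and matplotlib 3.10.9.

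Named were the 12 largest rises and the 12 largest falls past the threshold. These were taken among genes whose groups did not overlap and that all 3 arrays of the higher group detected. Also named were core genes of the lists, the largest riser and faller of each list and the genes of the middle window. The 6 largest shifts each way from day 4 to day 6 were added. The 38 lists hold 1054 entries, of which 989 had a probe and 739 different genes were measured. Members and lists were chosen with earlier results of these data known. Promoters are RefSeq's (GRCm38.p6), and the genes whose promoters are printed were chosen for holding the motif. Alternatives covered background correction, scaling, filters, probe choice, the spread estimate, single arrays and the inferred sets.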

Additional observations from a re-analysis of the deposited data

Results flagged for a closer look

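For 5 named genes the difference from hypoxic cells ran one way on days 4 to 6 and the other way on days 1 to 3, and the difference between both windows passed the limma test in the fit of 4 window means. Krt5 was lower than on days 1 to 3 by a log2 difference of -1.69 (adjusted p = 0.0118), lying at -1.31 from hypoxic cells on days 4 to 6 and at 0.38 on days 1 to 3. Evpl differed by -2.51 (limma adjusted p = 0.00488), from 1.04 above hypoxic cells on days 1 to 3 to -1.47. Cad, the enzyme that starts pyrimidine synthesis, differed by -1.004 (limma adjusted p = 0.0133), from 0.26 to -0.75. Ifi47 differed by 2.14 (limma adjusted p = 0.0145), from -0.44 to 1.70. Alk differed by 0.65 (limma adjusted p = 0.0362), from -0.08 to 0.57. Days 1 to 3 and days 4 to 6 lie in different inferred sets of arrays, and with the set as a block 0 genes passed this comparison (1623 at an unadjusted p below 0.05). The part of the sets in these differences was not tested.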

How the results depend on the processing

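Quantile scaling without background correction left 1452 genes past the threshold at 2-fold or more. With the inferred set as a block 3104 genes passed (1448 higher, 1656 lower), and within the set of days 4 to 6 2324 passed (1103 higher, 1221 lower). Leaving out each array in turn gave 4444 to 5347. Days 4, 5 and 6 carry the same replicate number, so the numbers cannot pair these 6 arrays; with the number as a replicate block in a fit of 8 group means on all 12 arrays, 4722 genes passed. Against day 7 the count was 1209 under quantile scaling without background correction, 2111 under a common median over all probes, 419 with the set as a block and 70 to 1168 with 1 of days 4 to 6 left out. Against days 1 to 3 it was 0 with the set as a block and 582 to 1125 with 1 of the days left out. Middle-window genes numbered 15 (14 higher) under a common median over all probes, 0 (0 higher, 0 lower) with the set as a block and 1 to 18 with 1 day left out (1 to 15 higher, 0 to 3 lower). They were 2 higher and 4 lower when a common median was set on the probes that all 12 arrays detected, and 8 higher without a detection filter. Of the named genes' values under all settings, 2132 kept direction and side of the threshold, 107 lost the threshold, 0 gained it and 2 turned sign: Ldha to -0.047 (limma adjusted p = 0.827) and Krt14 to -0.066 (limma adjusted p = 0.784), both under a common median over all probes and neither past the threshold in the main analysis. Among p53 targets 1 rose in the main analysis and 3 to 5 under several other settings. The cause of these moves was not tested. With 3 arrays a group, and 1 a day, the number of arrays limits the precision.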
